A study of Mus musculus with 8 samples.

Results

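The nuclear genes for the respiratory chain and the mitochondrial ATP synthase were examined in the livers of *Agpat3* WT and KO mice. The genes were taken by symbol among the protein-coding genes of the mouse RefSeq table, as *Nduf* with a letter a, b, c, s or v and a number, *Sdha* to *Sdhd*, *Uqcr*, *Cox4* to *Cox8*, and *Atp5*. Of the 87 genes with such a symbol, 83 had a probe on the array through their transcript identifiers, out of 22911 genes with a named probe, and each was read from its brightest probe. The 4 genes with no probe matched were *Ndufb1*, *Ndufb4b*, *Ndufb4c* and *Cox5b*. The samples were livers of male C57BL/6 mice aged 10 weeks, 4 *Agpat3* WT and 4 *Agpat3* KO. AGPAT3 is a lysophospholipid acyltransferase that places docosahexaenoic acid into phospholipids. The KO mice lacked the gene in the whole body, not in the liver alone, and no treatment was given in the labels. Total RNA of each liver was labeled with Cy3 and hybridized to 1 Agilent one-color array.

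The respiratory chain, in the inner mitochondrial membrane, passes electrons from NADH and succinate to oxygen. Complex I and complex II hand electrons to coenzyme Q, complex III carries them on to cytochrome c, and complex IV reduces oxygen. Complexes I, III and IV pump protons as they work, and the ATP synthase makes ATP from the returning protons. Most subunits are encoded in the nucleus, and a few core subunits are encoded in mitochondrial DNA. The chain lies in a phospholipid-rich membrane, and in the liver it serves fatty acid oxidation, gluconeogenesis and ureagenesis.

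The 8 arrays shared 1 slide and 1 scan. WT arrays filled row 1 and KO arrays row 2 of the slide, and therefore genotype and row cannot be told apart. *Agpat3* itself had a log2 fold change of -6.12 (limma adjusted p = 4.46e-07), with both probes lower in all 4 KO mice. The 10 hepatocyte markers examined were well above background on all 8 arrays, and of 5 brown adipocyte markers 4, *Ucp1* among them, were not well above background on any array.

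Of the 83 genes, 79 were well above background on all 8 arrays and were tested. All signals below are log2 of the processed signal minus that of the array's 75th percentile, and a log2 fold change is KO over WT. A gene was called when it differed by more than 1.5-fold with an adjusted p below 0.2. None of the 79 genes was called, where 1.67% of the 29069 probes tested were called (0.939% higher and 0.726% lower in KO). None passed the adjusted p in limma without the limit on fold either, against 4.13% of all probes (1.92% higher and 2.22% lower), and the lowest adjusted p among them was 0.361, that of *Ndufa3*. At an unadjusted p under 0.05 limma gave 2 of 79 genes, *Ndufa1* and *Ndufa3*, both lower in KO, which is 2.53% of the genes against 13.3% of all probes (5.54% higher and 7.73% lower). An unpaired t-test on the same values, the test named in the methods, gave 1 gene past an adjusted p under 0.2, which was also *Ndufa3* (adjusted p = 0.0849). That is 1.27% of the genes against 3.23% of all probes, and at an unadjusted p under 0.05 the test gave 8 genes (10.1%) against 13.2% of all probes. These are measurements of bulk liver, in which fewer cells of a type and less RNA per cell cannot be told apart.

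A missed threshold does not show that the levels were equal, so the interval of each difference was examined. The 95% interval of the fold change lay within 1.5-fold in either direction for 78 of 79 genes (98.7%), against 74.0% of all probes. It lay within 1.25-fold for 75 genes (94.9%), against 34.6% of all probes. The 4 genes with wider intervals were *Sdhd*, whose interval reached 1.26-fold, *Ndufa1* (1.28-fold), *Ndufa4l2* (1.46-fold) and *Cox7a1* (1.56-fold). The standard errors (SE) of the log2 fold changes were between 0.0561 and 0.149. The median residual SD between mice of one genotype was 0.0718 on the log2 scale in these genes and 0.171 over all probes tested. The log2 fold changes ran from -0.18 (*Ndufa1*) to 0.30 (*Cox7a1*). Their median was -0.049, with the KO mean lower for 59 genes and higher for 20, while the median over all probes tested was -0.025, with 56.3% of them below 0. The tilt was not particular to these genes. Cytosolic ribosomal protein genes, listed after these values were seen, had a median of -0.044, with 68 lower and 11 higher. Mitochondrial ribosomal protein genes had a median of 0.030, with 27 lower and 51 higher.

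**Figure D1:**
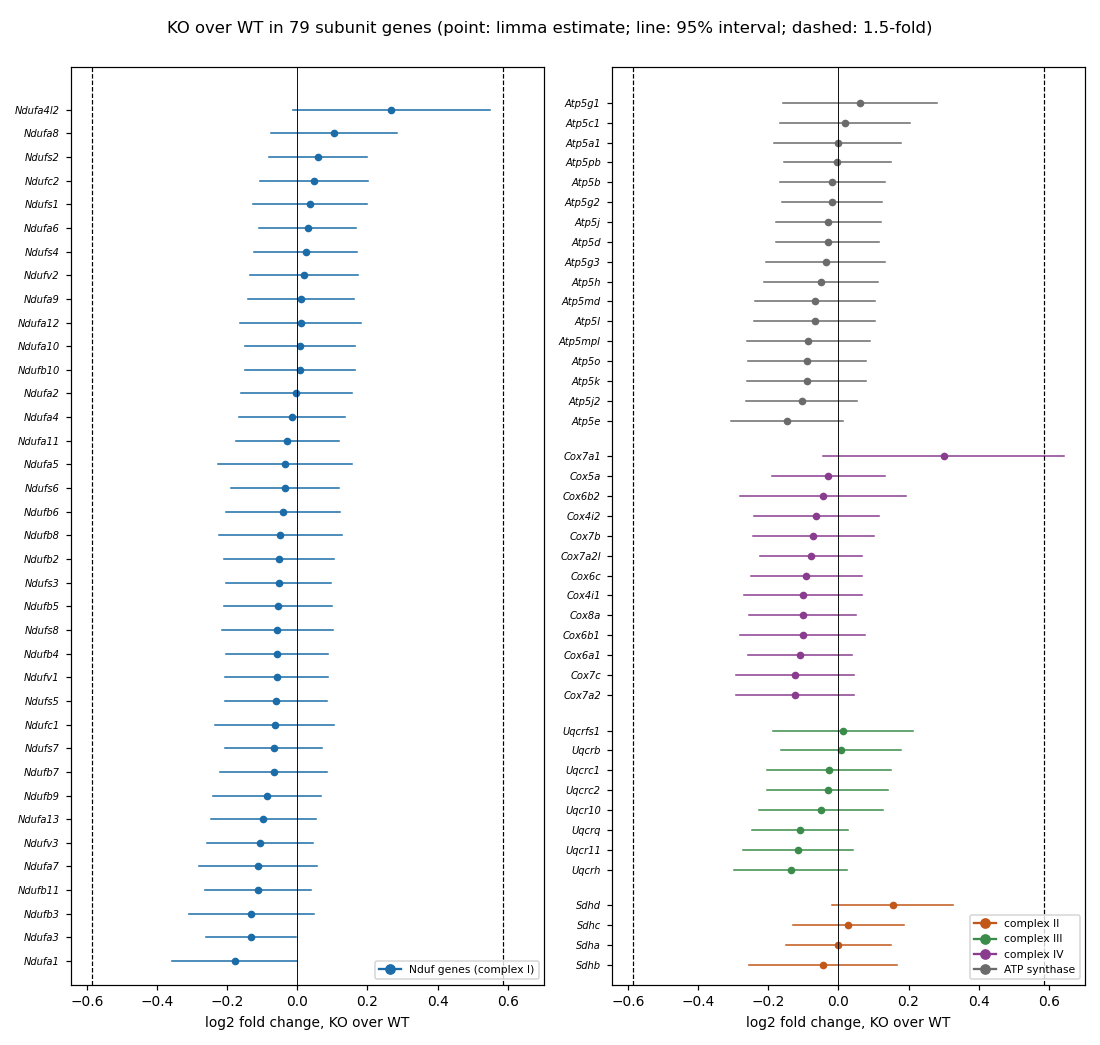
Log2 fold change of KO over WT liver for the 79 genes tested, sorted within each complex; points are limma estimates, lines are 95% intervals, and dashed lines mark a 1.5-fold difference. Apart from *Cox7a1*, all intervals end inside the dashed lines, and only those of *Ndufa1* and *Ndufa3* leave out 0.

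In 4 genes every KO mouse was below every WT mouse, which is 5.06% of the genes tested, while such a gap with KO lower was found for 5.17% of all probes. The reverse, every KO mouse above every WT mouse, was found for no gene here and for 3.69% of all probes, so that the 4 genes compare with 8.86% of all probes in either direction. The 4 genes were *Ndufa3*, *Ndufb11*, *Uqcrq* and *Cox8a*, of which *Ndufb11* and *Uqcrq*, subunits of complexes I and III with log2 fold changes of -0.11 each, were named after their values were seen. For each of them the exact permutation test over the 70 assignments of mice gave p = 0.0286 (two-sided), the smallest value that 4 against 4 mice allow. Groups without overlap always give this p, so it restates how the 4 genes were picked and adds no evidence. The gap was narrow for *Cox8a*, a small complex IV subunit, whose highest KO value and lowest WT value were both 8.38 after rounding.

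Many nuclear genes of the respiratory chain carry sites for the transcription factors NRF1, GABP and YY1, and the promoters were read for the letters these factors are known to bind. Promoters, from 250 bases before to 50 after the start, were taken from RefSeq on GRCm38.p6 and were found for 67 of the 83 genes. They were searched on both strands. The NRF1 motif, GCGC and any base followed by TGCGC, was found for 17 of the 67 genes (25.4%), against 7.17% of 17492 protein-coding genes. The YY1 motif AAGATGGC was found for 10 genes (14.9%, against 3.57%), and the GABP motif CCGGAAGT for 5 (7.46%, against 5.69%). None of the 67 genes held both the YY1 and the GABP motif, but 10 and 5 genes are too few to show that the motifs exclude each other. At least 1 of the 3 motifs was found for 30 genes (44.8%, against 15.1%). The ERR motif TCAAGGTCA was found for 2 genes, *Sdhd* and *Atp5g3* (2.99%, against 0.377%), and the E-box CACGTG for 6 (8.96%, against 8.91%). The sterol regulatory element TCACNCCAC was found for no gene of the 67, against 1.41% of all genes. The windows of protein-coding genes with several starts were pooled by gene, and a match describes letters and not a bound site.

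The promoters of 5 genes whose values are given in full or in part below are shown, as they differ in their motifs. Each runs from 150 bases before to 30 after the start on the strand of the gene, and capitals mark the matched motif. *Ndufa3* (chr7:3617223-3617402, plus strand) holds the YY1 letters 23 bases into the transcript. *Sdhd* (chr9:50603820-50603999, minus strand) and *Cox6a1* (chr5:115348929-115349108, minus strand) hold the reverse complement of the NRF1 letters 79 and 117 bases before the start. *Cox6a1* has another NRF1 match 162 bases before its start, outside the stretch shown. *Uqcrh* (chr4:116075041-116075220, minus strand) holds the reverse complement of the GABP letters 11 bases before the start. *Cox7a1* (chr7:30184021-30184200, plus strand), the muscle form, holds none of the motifs above in its window.
Ndufa3: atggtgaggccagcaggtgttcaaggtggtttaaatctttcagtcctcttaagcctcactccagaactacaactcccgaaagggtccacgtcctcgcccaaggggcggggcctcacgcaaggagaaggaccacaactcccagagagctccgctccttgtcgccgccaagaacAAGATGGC
Sdhd: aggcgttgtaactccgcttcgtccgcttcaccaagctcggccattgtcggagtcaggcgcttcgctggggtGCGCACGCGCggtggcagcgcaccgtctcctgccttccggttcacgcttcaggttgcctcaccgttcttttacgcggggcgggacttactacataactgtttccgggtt
Cox6a1: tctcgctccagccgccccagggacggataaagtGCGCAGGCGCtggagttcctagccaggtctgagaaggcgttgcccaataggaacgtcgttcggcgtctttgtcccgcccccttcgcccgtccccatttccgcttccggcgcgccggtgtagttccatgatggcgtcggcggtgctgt
Uqcrh: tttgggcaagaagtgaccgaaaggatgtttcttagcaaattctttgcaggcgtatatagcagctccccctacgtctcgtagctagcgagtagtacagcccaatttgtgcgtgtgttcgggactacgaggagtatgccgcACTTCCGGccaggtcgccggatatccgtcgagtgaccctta
Cox7a1: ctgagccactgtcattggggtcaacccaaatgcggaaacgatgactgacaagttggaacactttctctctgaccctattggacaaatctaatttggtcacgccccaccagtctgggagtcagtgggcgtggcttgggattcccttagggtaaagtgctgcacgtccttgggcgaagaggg

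Complex I, the NADH dehydrogenase, was represented by 37 genes, all of which were tested. Their median log2 fold change was -0.048, with the KO mean lower for 25 and higher for 12. *Ndufa1* encodes a small accessory subunit that anchors in the membrane arm. Its log2 signals in mice 1 to 4 were 7.25, 7.01, 7.15 and 7.22 (WT) and 6.88, 7.01, 7.06 and 6.97 (KO). The second WT mouse was below the third KO mouse, and the other WT mice were above all KO mice. *Ndufa1* thus had a log2 fold change of -0.18 (SE 0.0774, adjusted p = 0.373 in limma), with an exact permutation p of 0.0571 (two-sided).

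*Ndufa3*, another accessory subunit of the membrane arm, had values that differed little among mice of one genotype. Its log2 signals in mice 1 to 4 were 7.44, 7.39, 7.42 and 7.40 (WT) and 7.25, 7.27, 7.31 and 7.29 (KO). The WT values lay above the KO values without overlap, and both groups were narrow, with an SD of 0.0192 in WT and 0.0250 in KO, over 4 mice each. KO over WT, the log2 fold change was -0.13 (SE 0.0561, adjusted p = 0.361 in limma). The promoter with the YY1 letters shown above is that of this gene. Another probe of *Ndufa3* gave -0.13 as well (limma adjusted p = 0.394).

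The core subunits *Ndufs1* and *Ndufv1* had estimates nearer to 0. *Ndufs1*, which carries iron-sulfur clusters of the electron entry path, had log2 signals of 5.67, 5.67, 5.82 and 5.75 in WT and 5.68, 5.73, 5.87 and 5.78 in KO, with a log2 fold change of 0.036 (SE 0.0713). *Ndufv1*, which binds NADH and the flavin, had a log2 fold change of -0.059 (SE 0.0639). *Ndufa8*, an accessory subunit, had the largest positive estimate of the common complex I genes, with a log2 fold change of 0.10 (SE 0.0781, adjusted p = 0.623 in limma). The groups overlapped for all 3 genes.

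*Ndufa4* and *Ndufa4l2* carry complex I symbols, although the NDUFA4 protein is now assigned to complex IV, and NDUFA4L2 is its hypoxia-responsive paralog. *Ndufa4* had a log2 fold change of -0.015 (SE 0.0658). *Ndufa4l2* read -0.29, -0.092, -0.41 and -0.21 (log2 signal) in WT mice, against -0.25, 0.28, -0.037 and 0.061 in KO mice. The first KO mouse lay among the WT mice, and the other KO mice were above all of them. The log2 fold change was 0.27 (SE 0.123, adjusted p = 0.400 in limma), with an exact permutation p of 0.0857 (two-sided).

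Complex II, the succinate dehydrogenase, has its 4 subunits encoded in the nucleus and is shared with the TCA cycle. The median log2 fold change was 0.014, and -0.023 when the arrays were centered on their medians. *Sdhd*, a membrane anchor that binds coenzyme Q, read 6.25, 6.27, 6.42 and 6.44 (log2 signal) in WT mice, against 6.43, 6.46, 6.59 and 6.52 in KO mice. The lowest KO mouse lay between the WT mice, and the other KO mice were above all of them. For *Sdhd* the log2 fold change came to 0.15 (SE 0.0755, adjusted p = 0.429 in limma), with an exact permutation p of 0.0571 (two-sided). The flavoprotein *Sdha*, the iron-sulfur protein *Sdhb* and the other anchor *Sdhc* had log2 fold changes of 0.00022, -0.043 and 0.029 (SEs 0.0653, 0.0918 and 0.0694), each with overlapping groups.

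In complex III, the cytochrome bc1 complex, 8 genes were tested. The median log2 fold change was -0.040, with the KO mean lower for 6 and higher for 2. *Uqcrh*, the hinge protein next to cytochrome c1, read 8.26, 8.21, 8.34 and 8.29 (log2 signal) in WT mice, against 8.05, 8.09, 8.26 and 8.17 in KO mice. Only the third KO mouse reached the WT range. The log2 fold change was -0.14 (SE 0.0705, adjusted p = 0.461 in limma), with an exact permutation p of 0.0571 (two-sided). The small subunit *Uqcr11* had a log2 fold change of -0.12 (SE 0.0684). The Rieske iron-sulfur protein *Uqcrfs1* and *Uqcrb*, a subunit near the quinone site, had log2 fold changes of 0.014 and 0.0076 (SEs 0.0869 and 0.0744). The separately encoded subunit *Cyc1* and the mobile carrier *Cycs*, cytochrome c, which the symbols above do not cover, had log2 fold changes of 0.0073 and -0.0045 (SEs 0.0667 and 0.0941).

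**Figure D2:**
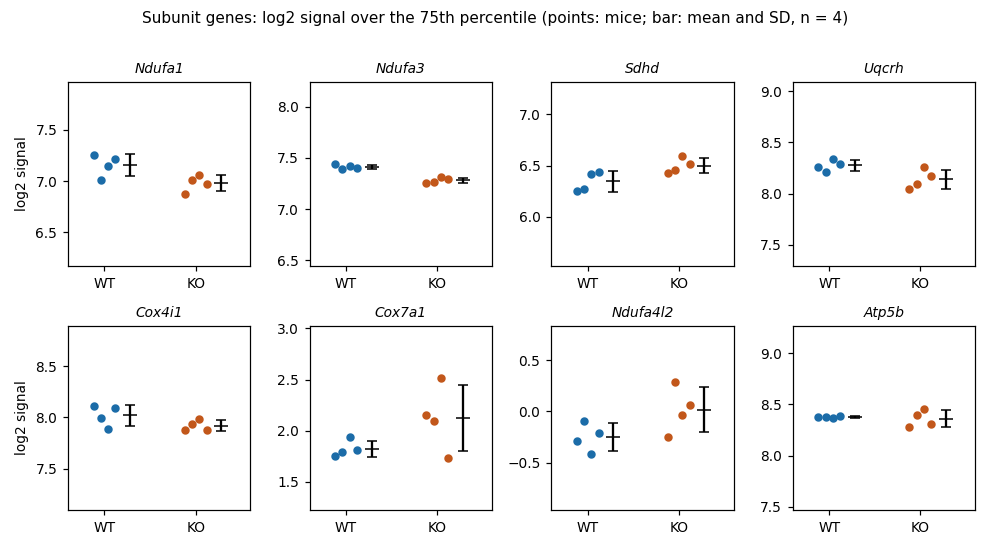
Log2 signal over the 75th percentile of the array for 8 genes in each mouse (points), with mean and SD of 4 mice per genotype; all panels span the same height on the log2 scale. *Ndufa3* shows a narrow gap between the genotypes, and *Cox7a1* spreads from 1.74 to 2.51 among the KO mice.

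Complex IV, cytochrome c oxidase, had the lowest median log2 fold change of the groups, -0.091 over the 13 of 17 genes tested, also with quantile normalization (-0.055), median centering (-0.13) and normexp (-0.087). The KO mean was lower for 12 of the 13 genes, and the exception was *Cox7a1*. *Cox4i1*, the common form of the regulatory subunit 4, had log2 signals of 8.11, 7.99, 7.89 and 8.09 in WT and 7.88, 7.94, 7.99 and 7.87 in KO, with overlap. Its log2 fold change was -0.10 (SE 0.0728, adjusted p = 0.608 in limma). The small structural subunits *Cox7a2*, *Cox7c*, *Cox6a1*, *Cox6b1* and *Cox8a* lay between -0.12 and -0.10. *Cox7c* shows the limit of such small estimates, as its other probe gave -0.0012 where the brighter one gave -0.12. *Cox5a* and *Cox7b* had log2 fold changes of -0.028 and -0.071 (SEs 0.0700 and 0.0750). The difference in median between complexes was not tested. Without KO mouse 1 the median log2 fold change was -0.014 for complex I, 0.048 for complex II, -0.0015 for complex III, -0.057 for complex IV and -0.0054 for the ATP synthase. Without KO mouse 3 it was -0.078, -0.0080, -0.086, -0.11 and -0.064 in the same order.

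Several complex IV subunits exist in forms that are restricted to other tissues, and these were read one by one. *Cox7a1*, the heart and skeletal muscle form of subunit 7a, read 1.76, 1.79, 1.93 and 1.81 (log2 signal) in WT mice, against 2.15, 2.09, 2.51 and 1.74 in KO mice. The first 3 KO mice were above all WT mice, and the fourth was below them. The log2 fold change was 0.30 (SE 0.149, adjusted p = 0.439 in limma), with an exact permutation p of 0.143 (two-sided). With each array left out in turn, the log2 fold change of *Cox7a1* ran from 0.17 to 0.43 (limma adjusted p 0.219 to 0.592). The largest value was that without the fourth KO mouse, and no run passed the threshold. The liver form *Cox7a2* had log2 signals of 7.56, 7.50, 7.59 and 7.46 in WT and 7.40, 7.40, 7.53 and 7.29 in KO, with overlap and a log2 fold change of -0.12 (SE 0.0737, adjusted p = 0.525 in limma).

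The muscle form *Cox6a2* was well above background on 3 WT and 3 KO arrays and was not tested. The muscle form *Cox8b* and the testis forms *Cox7b2* and *Cox8c* were not well above background on any of the 8 arrays. The lung form *Cox4i2* and the testis form *Cox6b2* were well above background on all arrays, with log2 fold changes of -0.063 and -0.044 (SEs 0.0773 and 0.104). Of 8 muscle markers, *Mylpf*, *Tnnt3* and *Atp2a1* stood well above background on all 8 arrays. Their log2 fold changes were 0.0020, 0.010 and -0.052 (SEs 0.186, 0.0933 and 0.169). *Acta1* and *Myh4* did so on 1 KO array each and on no WT array, and *Ckm*, *Myh1* and *Myh2* on none. The summed signal of the 8, as a multiple of the 75th percentile, was 0.614 to 0.711 in WT and 0.677 to 0.788 in KO. Its part in the values of *Cox7a1* was not tested.

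The ATP synthase was represented by 17 genes, all of which were tested. The median log2 fold change was -0.036, with the KO mean lower for 15 and higher for 2. The catalytic subunit *Atp5b* had a log2 signal of 8.38, 8.38, 8.37 and 8.39 in WT, against 8.28, 8.40, 8.46 and 8.31 in KO. The WT mice were nearly identical and lay inside the KO range. The log2 fold change was -0.017 (SE 0.0653), and that of the other catalytic-head subunit *Atp5a1* was -0.0015 (SE 0.0791). *Atp5e*, the epsilon subunit of the central stalk, had log2 signals of 7.95, 7.80, 7.96 and 7.85 in WT and 7.68, 7.74, 7.83 and 7.73 in KO. Only the third KO mouse passed the lowest WT mouse, and the log2 fold change was -0.15 (SE 0.0694, adjusted p = 0.417 in limma). *Atp5j2*, a subunit of the membrane part, had -0.10, and the ring subunit gene *Atp5g1* and the gamma subunit *Atp5c1* had 0.062 and 0.019 (SEs 0.0686, 0.0962 and 0.0810).

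The probe chosen for a gene had little bearing on the count. Of the 83 genes, 18 had more than 1 probe, and 19 of their 20 other probes were tested. Their log2 fold changes lay between -0.13 and 0.094, 16 had the sign of the brighter probe, and limma called none of them, also at an unadjusted p under 0.05.

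The values of these genes varied together from mouse to mouse. For the 78 genes measured on all 8 arrays, the median deviation from the gene's own mean was 0.034, -0.024, 0.034 and 0.041 on the log2 scale in the WT mice. It was -0.12, -0.0029, 0.073 and -0.032 in the KO mice. The spread of these medians over the KO mice was therefore wider than the difference between the genotypes. KO mouse 1 had the lowest KO value for 67 genes (85.9%), where it was lowest for 30.5% of all probes tested. KO mouse 3 had the highest KO value for 65 genes (83.3%), against 32.9% of all probes. Among the WT mice, WT mouse 2 was lowest for 47 of the 78 genes.

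**Figure D3:**
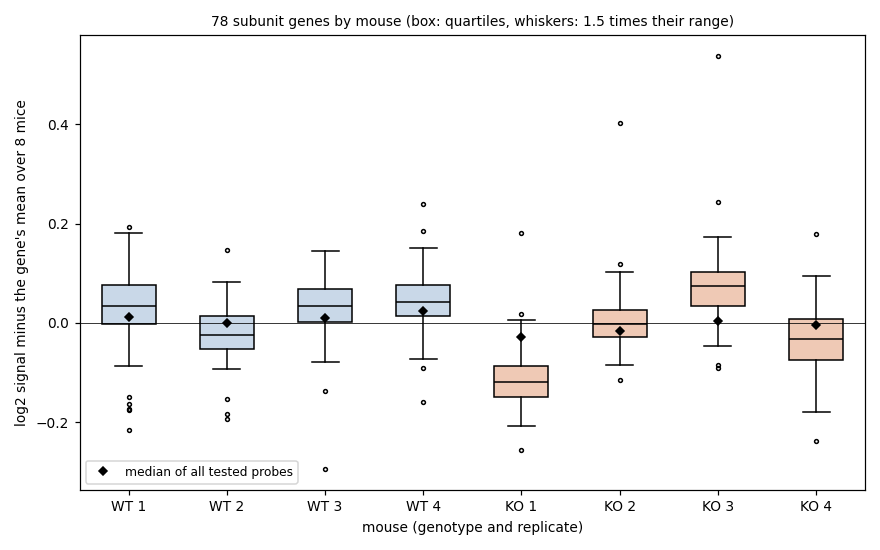
Deviation of log2 signal from each gene's mean over the 8 mice, for the 78 genes measured on all arrays; boxes are quartiles, whiskers reach 1.5 times their range, and diamonds are the medians of all probes tested. The median is -0.12 in KO mouse 1 and 0.073 in KO mouse 3, while the diamonds lie between -0.029 and 0.024.

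By complex, KO mouse 1 was lowest of the KO mice for 34 of 36 complex I genes, 4 of 4 complex II genes, 7 of 8 complex III genes, 7 of 13 complex IV genes and 15 of 17 ATP synthase genes. Of the TCA cycle enzymes it was lowest for 11 of 13. Cytosolic ribosomal protein genes, listed after the values of the subunit genes were seen, had KO mouse 1 lowest for 50 of 79, and mitochondrial ribosomal protein genes for 28 of 78. After the genotype means were removed, the median correlation over the arrays between 2 subunit genes was 0.66 over 3003 pairs, and it was 0.0077 among 2905 probes taken at even steps from those tested. These correlations rest on 8 arrays that all genes share, together with the scaling of each array. With quantile normalization, KO mouse 1 was lowest for 28 of the 78 genes and its median deviation was -0.033. It was lowest for 68 with median centering and for 63 with normexp background correction. KO mouse 3 was highest of the KO mice for 60 genes with quantile normalization, 74 with median centering and 64 with normexp. Without KO mouse 1 the median log2 fold change of the subunit genes was -0.014 with 47 of 79 below 0, and without KO mouse 3 it was -0.078 with 68 below 0.

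Other genes of oxidative phosphorylation were taken from 10 lists of assembly factors, electron carriers, coenzyme Q and TCA cycle enzymes, regulators, and adenine nucleotide exchange. Of 108 such genes on the array, 106 were tested and none was called, against 1.67% of all probes. Without the limit on fold, 1 of the 106 was higher and 1 lower at an adjusted p under 0.2 in limma. Of all probes, 1.92% were higher and 2.22% lower at that threshold, so the 2 genes do not exceed the share over all probes. At an unadjusted p under 0.05 in limma, 9 of the 106 were higher and 3 lower, against 5.54% and 7.73% of all probes. The median log2 fold change of the 106 genes was 0.0099. Among assembly factors, the medians were 0.043 for 17 genes of complex I and 0.048 for 4 of complex II. They were -0.085 for 5 genes of complex III, -0.010 for 22 of complex IV and 0.12 for 5 of the ATP synthase, its inhibitor included. The medians were 0.039 for 12 coenzyme Q genes, 0.0079 for 13 TCA cycle genes and -0.10 for 14 regulators. They were 0.0073 for 7 other subunits and electron carriers, and 0.0049 for 7 genes of adenine nucleotide exchange and outer membrane channels. No probe was named for the 13 subunits encoded in mitochondrial DNA, which were not analyzed here.

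Both genes past the adjusted p were regulators. *Yy1* encodes a zinc finger factor that binds many promoters, those of respiratory chain genes among them. Its log2 signals in mice 1 to 4 were 2.51, 2.39, 2.66 and 2.48 (WT) and 2.17, 2.25, 2.20 and 2.20 (KO), without overlap. It fell by 0.30 on the log2 scale (SE 0.0739, adjusted p = 0.143 in limma), a 1.23-fold difference, and its other probe had a log2 fold change of -0.26 (limma adjusted p = 0.192). *Tfb1m* encodes a mitochondrial rRNA methyltransferase. Its log2 signals in mice 1 to 4 were 2.06, 2.29, 2.20 and 2.09 (WT) and 2.39, 2.57, 2.46 and 2.38 (KO), again without overlap, and it rose by 0.29 (SE 0.0805, adjusted p = 0.182 in limma). Neither call was firm, as the adjusted limma p was above 0.2 for *Yy1* without 6 of the 8 arrays in turn (at most 0.298) and for *Tfb1m* without each of the 8 (0.214 to 0.356).

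The coactivator *Ppargc1a*, named after its values were seen, read 0.63, 0.83, 0.87 and 1.32 (log2 signal) in WT mice, against 1.66, 1.41, 1.86 and 1.13 in KO mice. The highest WT mouse was above the lowest KO mouse, and the other mice did not overlap. Its log2 fold change was 0.60 (SE 0.191, adjusted p = 0.237 in limma), a 1.52-fold difference whose 95% interval ran from 0.16 to 1.04 on the log2 scale. Other factors of the same list did not pass the adjusted p, such as *Nrf1* with a log2 fold change of -0.22, *Gabpa* with 0.10, *Esrra* with -0.26 and the mitochondrial DNA packaging factor *Tfam* with 0.030 (SEs 0.0997, 0.0638, 0.148 and 0.0883). *Ppargc1a*, *Nrf1*, *Gabpa* and *Tfam* had more than 1 probe each, and only the values of the brightest are given here.

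**Figure D4:**
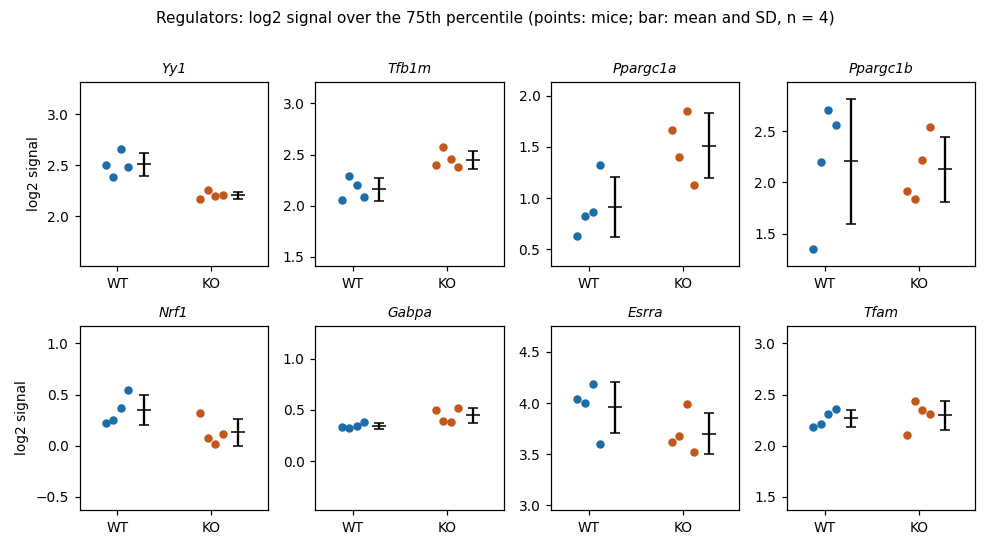
Log2 signal over the 75th percentile of the array for 8 regulators of mitochondrial gene expression in each mouse (points), with mean and SD of 4 mice per genotype; all panels span the same height. *Yy1* and *Tfb1m* show no overlap between genotypes, *Ppargc1a* overlaps by 1 mouse on each side, and *Ppargc1b* has the widest WT spread.

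With the motifs described above, the median log2 fold change was -0.034 for the 17 tested genes with the NRF1 motif and -0.055 for 48 without it. It was -0.042 for 10 genes with the YY1 motif and -0.052 for 55 without it. The 5 genes with the GABP motif, *Atp5h*, *Cox8a*, *Ndufs3*, *Uqcr11* and *Uqcrh*, had a median of -0.10, and 60 genes without it had -0.046. No test was run on these medians.

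The subunit genes lay on 19 chromosomes, with at most 8 on 1 chromosome. They were shorter than most, with a median span of 7.28 kb from start to end, against 20.5 kb over 14067 genes tested. Across the 79 genes, longer genes had less negative log2 fold changes, with a Spearman correlation of 0.33, while it was 0.015 over all genes. These correlations are across genes, which share the arrays and are not independent replicates.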

How the data were processed

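RNA of 4 *Agpat3* WT and 4 *Agpat3* KO livers was measured on one-color arrays, grouped by the genotype in the labels. Per the file headers, the authors deposited spot intensity on a linear scale from Agilent Feature Extraction 10.7.1.1, already background-corrected and with no gene symbols. They also deposited log2 values, which equal the log2 of that intensity minus the 75th percentile of the array (median absolute difference 0.0029 to 0.0085, column medians -3.54 to -3.44). Arrays have no sequencing depth, so precision depends on how many arrays there are and, for dim probes, on the signal over background. The 75th percentile over probes was 261 to 309 and the median local background 27 to 32 intensity units.

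Control and outlier spots were left out, spots of a probe were averaged, and the log2 of the array's 75th percentile was subtracted from each log2 intensity. The test took the 29069 of 56605 probes that every array of either the WT or the KO group marked as well above background. It was limma 3.58.1 (lmFit, then eBayes; R 4.3.3), two-sided, with Benjamini-Hochberg adjustment over these probes. The thresholds, more than 1.5-fold with an adjusted p below 0.2, follow the values in a figure legend of the study, which gives p under 0.2 without saying that it was adjusted. An exact permutation test over 70 assignments was run for single genes. The test was tried on simulated arrays of 29069 probes. With 200 probes shifted by 1.5 (log2), it recovered 92.5% of them with 8.9% false calls, and with no probe shifted it called 1. That shift is larger than the log2 fold change of any subunit gene, so recovery of differences of their size was not tested. The simulated probes also varied independently, whereas the subunit genes varied together.

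Names came from transcript identifiers matched to RefSeq (GRCm38.p6) for 32994 probes. The scanner headers name mm9, so RefSeq positions serve only for the promoters and gene spans. The members and gene lists were chosen with earlier results of these data known. Named in the text were, in each complex, the 2 genes with the highest and the 2 with the lowest log2 fold change, all *Sdh* genes, the tissue-restricted forms with their common counterparts, 7 core subunits (of which *Cox5b* has no matched probe), genes of the other lists past an adjusted p of 0.2, and *Agpat3*. Other genes are said to be named after their values were seen or illustrate a list or motif. Markers of 9 cell types were also read.

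Alternatives were normexp background correction (offset 50, on the median spot signal), quantile normalization, median centering, the deposited log2 values, no filter and a stricter filter on dim probes, outlier spots kept, eBayes with trend and robust options, a replicate block, each array left out, a gene's probes averaged, other thresholds, and the unpaired t-test of the study's methods. Runs of these settings for 11 further genes, among them *Yy1*, *Tfb1m* and *Ppargc1a*, were added after seeing the data. Figures were drawn with matplotlib 3.10.9.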

Additional observations from a re-analysis of the deposited data

Results flagged for a closer look

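In 76 groups of 4 mice, the named genes were searched for 1 mouse that stood apart from the other 3 of its genotype by Dixon's criterion, which chance passes in about 1 of 20 groups. It was met 3 times. *Sdha* had a log2 signal of 5.67 in KO mouse 1, while the other KO mice were between 5.81 and 5.82. *Cox6a2* had -4.96 in WT mouse 4, while the other WT mice were between -3.44 and -3.23. *Cox8b* had -4.11 in KO mouse 1, while the other KO mice were between -6.21 and -6.11, and the probe was well above background on 0 of the 8 arrays.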

How the results depend on the processing

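The counts of called subunit genes were 0 in each direction under every alternative run, including each array left out in turn. Past an adjusted p under 0.2 with no limit on fold, the count of lower genes was 0 in limma, 1 (*Ndufa3*) with eBayes trend and robust options (adjusted p = 0.146) and 1 (*Ndufa3*) with the unpaired t-test of the methods. It was 2 at an unadjusted limma p under 0.05 in the main fit. In either direction, the count at that unadjusted p was 9 with trend and robust options and 5 with normexp. It was 1 with quantile normalization and 0 to 4 with 1 array left out. The median log2 fold change of the 79 genes was -0.049, -0.020 with quantile normalization (49 genes below 0), -0.087 with median centering (72 below 0, and -0.063 over all probes), -0.043 with normexp (57 below 0) and -0.078 to -0.014 with 1 array left out. The lowest is without KO mouse 3 and the highest without KO mouse 1.

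Some estimates near 0 changed sign. With normexp *Sdha* was at -0.015. With quantile normalization *Atp5a1* was at 0.050, *Atp5b* at 0.041, *Cox5a* at 0.041, *Ndufa4* at 0.0047 and *Sdhb* at 0.012. With median centering *Atp5c1* was at -0.019, *Ndufs1* at -0.0014, *Sdha* at -0.037, *Sdhc* at -0.0089, *Uqcrb* at -0.030 and *Uqcrfs1* at -0.023. With the mean of its probes *Atp5a1* was at 0.043. With 1 array left out, the ranges that crossed 0 were -0.041 to 0.057 for *Atp5a1*, -0.050 to 0.011 for *Atp5b*, -0.036 to 0.055 for *Atp5c1*, -0.0090 to 0.12 for *Atp5g1*, -0.11 to 0.029 for *Cox6b2*, -0.043 to 0.015 for *Ndufa4*, -0.019 to 0.037 for *Sdha*, -0.083 to 0.035 for *Sdhb*, -0.0064 to 0.059 for *Sdhc*, -0.028 to 0.060 for *Uqcrb* and -0.036 to 0.058 for *Uqcrfs1*. The cause was not tested. The same runs for genes named after their values were seen, or from other lists, were chosen after seeing the data. They changed the sign of *Cycs* (0.056 with normexp, 0.0086 with quantile normalization, -0.072 to 0.039 with 1 array left out), *Cyc1* (-0.030 with median centering, -0.027 to 0.032) and *Tfam* (-0.0074 with median centering, -0.015 to 0.096). Some runs crossed an adjusted p of 0.2. *Yy1* no longer passed with no filter on dim probes (limma adjusted p = 0.363). *Tfb1m* did not pass with median centering (0.256) or with no filter (0.434). *Ppargc1a* passed with normexp (0.181) and without WT mouse 4 (0.139) or KO mouse 4 (0.184), and *Ndufa3* with trend and robust options as above. The other estimates of single genes, 396 under other processing and 294 with 1 array left out, kept their sign and their side of that threshold.

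WT and KO mice share replicate numbers, which are also the slide columns. Deviations of same-numbered mice correlated at 0.33, -0.11, 0.10 and 0.32, and those of differently numbered mice at -0.27 to 0.27. The labels do not say that the numbers are pairs, and the main fit did not take them as such. Pairs and slide columns cannot be told apart here. With the replicate block the count of called genes was 0, the median log2 fold change was -0.049, the lowest adjusted p was 0.247 (*Ndufa4l2*), 1 gene had an unadjusted limma p under 0.05, and *Yy1* had an adjusted p of 0.202. Genotype lies with the row of the slide, and the 4 mice of a group limit all intervals.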
